A study of Mus musculus with 24 samples.

Results

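The 9 genes described here encode the core of the insulin-like growth factor (IGF) system and were chosen by name: the ligand gene *Igf1*, the receptor genes *Igf1r* and *Insr*, and the binding protein genes *Igfbp2* to *Igfbp7*. They are 9 of 22367 protein-coding genes of the mouse annotation, and because all 9 lie on autosomes they were read against the 21418 autosomal protein-coding genes. H3K4me3 and H3K27me3 were mapped by ChIP-seq, with total histone H3 as the control, in sorted cells of the fetal mouse gonad before and after sex determination. XY and XX progenitor cells came from E10.5 gonads of *Sf1-eGFP* embryos, Sertoli cells from E13.5 XY gonads of *Sox9-CFP* embryos, and pregranulosa cells from E13.5 XX gonads of *TESMS-CFP* embryos. TESMS is a mutated form of TESCO, an enhancer of *Sox9*. All embryos had a C57BL/6 x CD1 background and carried 1 of these reporter transgenes, and none was treated. Each of 2 replicates per population held 30000 to 100000 cells pooled from several embryos, and Drosophila chromatin was added as a carrier. Sex is therefore tied to the reporter at E13.5, and stage is tied to the reporter in both sexes, so that a difference due to the reporter cannot be told apart from one due to sex or stage.

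IGF1 is a secreted growth factor that signals through the tyrosine kinase receptors IGF1R and INSR, and loss of insulin and IGF receptors together is known to impair testis determination in mice. The IGF binding proteins are secreted carriers that hold IGFs in the extracellular space and can limit or prolong their access to the receptors. H3K4me3 marks the start sites of active and poised genes, H3K27me3 is laid down by Polycomb repressive complex 2 at silenced genes, and a promoter that carries both marks is called bivalent. A bivalent call in a peak list says that both marks were found in the population, and it does not tell whether they lay on the same allele or in the same cell.

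The values are covered bases. Promoters were defined as TSS ± 2 kb, or 4001 bp, where the TSS is the gene's 5′-most annotated transcription start site. A promoter counted as marked when a called region overlapped it by at least 1 bp. There is 1 peak list for each of the 2 marks in each of the 4 populations. The series description says that the lists came from both replicates. The headers of the 4 progenitor lists name joined reads, those of the 2 Sertoli lists do not say, the 2 pregranulosa lists have no header, and the methods speak of peaks called in each replicate. With 1 list per condition there is no spread between samples and no test of any difference between populations. Of the lists with a known depth, those of XY progenitor cells came from the fewest sequenced tags, 10162534 for H3K4me3 and 6470151 for H3K27me3. The numbers were 49254553 and 33185400 in XX progenitor cells and 31104760 and 44446456 in Sertoli cells. The depth of the pregranulosa lists is unknown. H3K27me3 covered 90.9 Mb of the genome in 9693 regions in XY progenitor, 144 Mb in 9309 regions in XX progenitor, 158 Mb in 13313 regions in Sertoli and 173 Mb in 12609 regions in pregranulosa cells, whose list was joined by a rule that is not known. The part of depth in the values below was not tested. Of the H3K27me3 regions, 35.6% in XY progenitor, 21.4% in XX progenitor, 18.2% in Sertoli and 16.9% in pregranulosa cells were at most 5001 bp wide, the commonest width. It was also close to the narrowest width. Only 0.0103% of regions in XY progenitor, 0% in Sertoli and 0.00793% in pregranulosa cells were narrower.

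The labelled identities were compared with marker genes. Of 6 Sertoli markers, 6 had H3K4me3 and 0 had H3K27me3 in Sertoli cells, whereas 4 of them, *Sox9*, *Dmrt1*, *Amh* and *Dhh*, carried H3K27me3 in pregranulosa cells. Of 6 pregranulosa markers, 6 were bivalent in Sertoli cells, and 4 still had H3K27me3 in pregranulosa cells, including *Foxl2* and *Lef1*, while *Wnt4* and *Rspo1* were without it. The paper reports that in pregranulosa cells H3K27me3 is lost at the start sites of *Foxl2* and *Lef1*. For *Foxl2*, which lies in a dense H3K27me3 locus, it states that a window of TSS ± 2 kb does not show this. The 6 gonadal progenitor markers (*Nr5a1*, *Wt1*, *Gata4*, *Lhx9*, *Emx2* and *Cbx2*) had H3K4me3 in every list. Of these 6, H3K27me3 was at 5 in XY progenitor, 6 in XX progenitor, 3 in Sertoli and 1 in pregranulosa cells. Most progenitor markers were thus bivalent in the progenitor populations and H3K4me3-only in pregranulosa cells. Neither blood marker found in the annotation, *Ptprc* and *Cd68*, had either mark in any list. Among the other cell types, 1 to 3 of 4 germ cell markers and 1 or 2 of 4 endothelial markers had H3K4me3. So did 1 to 3 of 3 steroidogenic markers and 3 of 3 mesonephros markers. H3K27me3 was at 1 or 2 germ cell markers, at 1 endothelial marker (*Kdr*) and at 0 steroidogenic markers. All 3 mesonephros markers were bivalent in every list. The part of these cell types in the values below was not tested.

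The 250 bases upstream of the TSS are shown for the ligand gene, for the neighbours *Igfbp2* and *Igfbp5*, for *Igfbp4*, which had H3K27me3 in Sertoli cells and in no other list, and for *Igfbp3*, which had it in every list. They are the mm9 reference (NCBIM37) written 5′ to 3′ on the strand of the gene, and capitals mark CpG, the dinucleotide whose density separates the promoters that usually carry these marks from those that do not.
Igf1 (chr10:87320760-87321009, plus strand): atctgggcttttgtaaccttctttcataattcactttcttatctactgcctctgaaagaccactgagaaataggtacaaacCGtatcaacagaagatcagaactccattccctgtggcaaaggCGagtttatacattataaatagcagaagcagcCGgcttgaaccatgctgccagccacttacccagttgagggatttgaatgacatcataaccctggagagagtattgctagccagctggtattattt
Igfbp2 (chr1:72870827-72871076, plus strand): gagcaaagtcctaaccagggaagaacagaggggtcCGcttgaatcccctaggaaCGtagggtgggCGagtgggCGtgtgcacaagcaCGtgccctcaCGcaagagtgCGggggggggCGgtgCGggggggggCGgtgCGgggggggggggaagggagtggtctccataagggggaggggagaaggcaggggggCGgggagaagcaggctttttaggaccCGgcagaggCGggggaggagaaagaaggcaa
Igfbp5 (chr1:72921459-72921708, minus strand): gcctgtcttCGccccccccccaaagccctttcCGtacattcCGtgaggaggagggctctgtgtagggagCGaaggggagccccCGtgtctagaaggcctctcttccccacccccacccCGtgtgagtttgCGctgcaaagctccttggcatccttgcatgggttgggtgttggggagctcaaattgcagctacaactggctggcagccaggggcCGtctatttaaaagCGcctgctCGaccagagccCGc
Igfbp4 (chr11:98902308-98902557, plus strand): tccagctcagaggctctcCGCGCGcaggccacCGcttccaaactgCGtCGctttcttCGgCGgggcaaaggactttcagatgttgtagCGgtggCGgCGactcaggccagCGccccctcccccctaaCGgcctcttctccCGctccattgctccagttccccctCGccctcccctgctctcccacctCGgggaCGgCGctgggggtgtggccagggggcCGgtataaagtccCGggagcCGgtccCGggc
Igfbp3 (chr11:7113927-7114176, minus strand): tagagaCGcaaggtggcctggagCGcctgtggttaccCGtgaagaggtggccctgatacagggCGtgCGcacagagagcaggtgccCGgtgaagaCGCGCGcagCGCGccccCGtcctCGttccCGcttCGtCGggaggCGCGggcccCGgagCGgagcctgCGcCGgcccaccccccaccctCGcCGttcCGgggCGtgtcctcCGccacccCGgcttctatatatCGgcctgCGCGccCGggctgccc

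These stretches hold 3 CpGs at *Igf1*, 14 at *Igfbp2*, 11 at *Igfbp5*, 22 at *Igfbp4* and 32 at *Igfbp3*. The other 4 genes hold 27 at *Igf1r*, 15 at *Insr*, 6 at *Igfbp6* and 26 at *Igfbp7*. In the 1001 bp centred on the TSS, the ratio of observed to expected CpG was 0.19 at *Igf1*, a value that exceeded that of 20.1% of genes. The other 8 genes lay between 0.52 at *Igfbp5* and 0.98 at *Igfbp3*, where 97.0% of genes were lower. The median was 0.73 over the 13381 genes with H3K4me3 in all 4 populations, 0.65 over the 5744 genes that were bivalent in at least 1 population (quartiles 0.48 and 0.79) and 0.16 over the 5638 genes with neither mark in any list. *Igf1* thus had both marks with a CpG content close to that of unmarked genes.

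**Figure D1:**
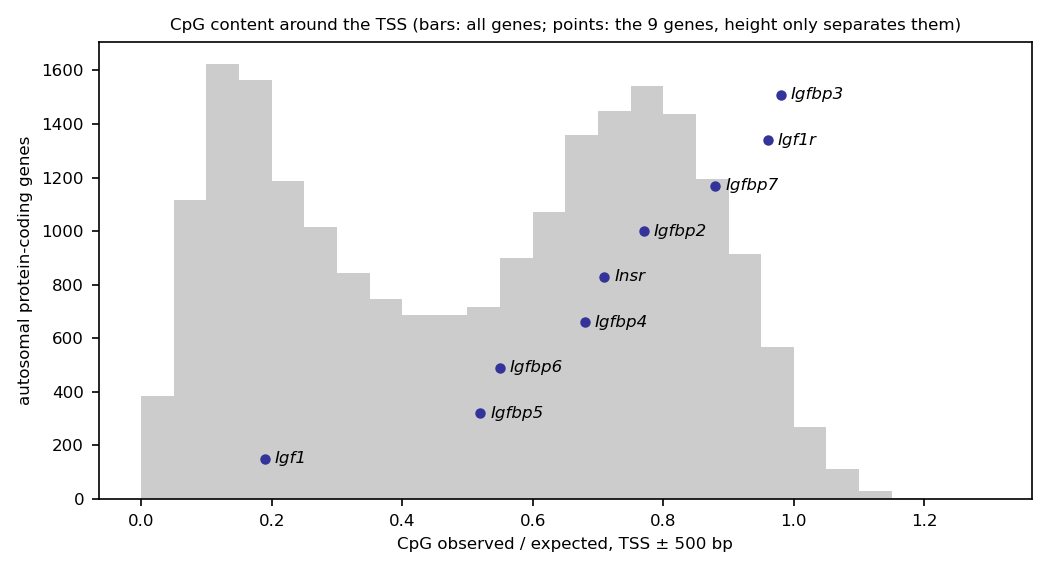
Grey bars count autosomal protein-coding genes by the ratio of observed to expected CpG within 500 bp of the TSS (x axis, no unit), and blue points give the 9 genes, with a height that only separates the names. *Igf1* sits alone at 0.19 in the left-hand peak, while the other 8 genes lie between 0.52 and 0.98.

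The letters of 4 motifs were searched on both strands of the 250 bases upstream of every gene, with positions counted backwards from the TSS. TATAAA, the TATA box, was in 12.4% of all 21418 upstream stretches, and among the 9 genes *Igfbp4* had it at -28 on the strand of the gene and *Igf1* had it at -114, with a further match on the other strand at -123. GGGCGG, the core of GC boxes, was in 39.9% of genes and occurred 3 times on the gene's strand at *Igfbp2* and *Igfbp7* and 3 times on the other strand at *Igf1r*, with 1 more on the other strand at *Igfbp7*. AACAAT, a core of SOX binding sites, was in 9.03% of genes, and TGTTTAC, a core of forkhead sites, in 2.70%. Among the 9 genes *Igfbp6* held both, AACAAT at -39 and TGTTTAC at -26 on the other strand. These are matches of letters and not measured binding.

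H3K4me3 was found at 9 of 9 promoters in each of the 4 populations. Over all autosomal genes the share was 64.8% in XY progenitor, 66.7% in XX progenitor, 65.5% in Sertoli and 67.0% in pregranulosa cells, so this mark alone set the 9 genes within the majority class. H3K27me3 was found at 6 of 9 promoters in XY progenitor, 5 of 9 in XX progenitor, 7 of 9 in Sertoli and 2 of 9 in pregranulosa cells. The corresponding shares of all genes were 23.6%, 22.8%, 24.2% and 22.1%. Because H3K4me3 was present throughout, the same 6, 5, 7 and 2 promoters were bivalent, against 20.9%, 21.4%, 19.2% and 19.6% of all genes. The count of H3K27me3-marked IGF promoters was lower in pregranulosa than in Sertoli cells, whereas the genome-wide share was similar in both.

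**Figure D2:**
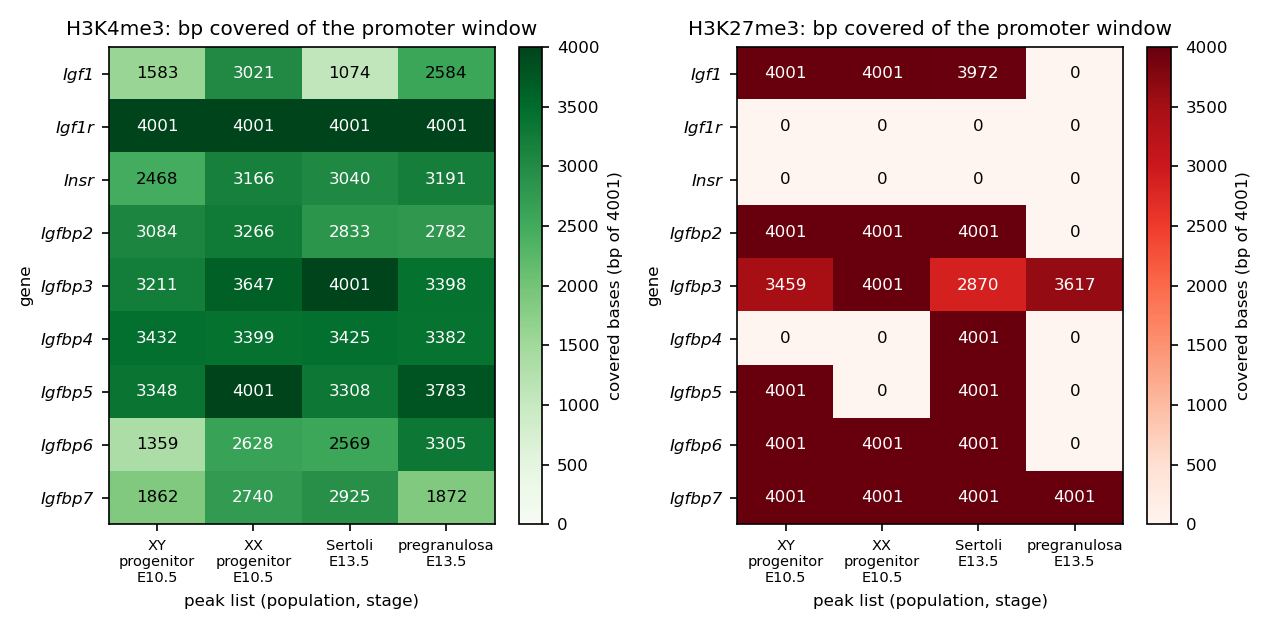
Bases of each 4001-bp promoter window covered by H3K4me3 (left, green) and H3K27me3 (right, red) for the 9 genes (rows) in the 4 populations (columns), with the value in each cell. H3K4me3 is present in every cell, while H3K27me3 is at 0 in pregranulosa cells for 7 of 9 genes, and at 0 in every population for *Igf1r* and *Insr*.

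Between the stages, the XY and XX lineages differed in which promoters changed. From XX progenitor to pregranulosa cells, 3 of 9 genes (*Igf1*, *Igfbp2* and *Igfbp6*) had H3K27me3 first and none later, a change seen at 4.22% of all genes. That was 3 of the 5 members marked in XX progenitor cells, where 18.5% of all marked promoters did the same, and 0 of 9 members had it newly in pregranulosa cells (3.42% of all genes). From XY progenitor to Sertoli cells, 0 of 9 had it first and none later (5.29% of all genes and 22.4% of the marked ones), and 1 of 9, *Igfbp4*, had it newly (5.87%). The count of 0 depended on the set of regions. With the widest 75% of regions, *Igf1* and *Igfbp3* had H3K27me3 in XY progenitor and none in Sertoli cells. The same held with every list cut to as many regions as the shortest list. At E13.5, 5 of 9 genes had H3K27me3 in Sertoli and none in pregranulosa cells (*Igf1*, *Igfbp2*, *Igfbp4*, *Igfbp5* and *Igfbp6*), against 5.11% of all genes. The opposite arrangement was found at 0 of 9, against 2.96% of all genes. Of promoters with H3K27me3 in Sertoli cells, 21.1% of all genes and 5 of the 7 members were without it in pregranulosa cells.

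*Igf1*, the ligand gene, lies on chromosome 10 (chr10:87321010-87399792, plus strand). Its H3K27me3 covered 4001 bp of the window in XY progenitor, 4001 bp in XX progenitor, 3972 bp in Sertoli and 0 bp in pregranulosa cells. The H3K4me3 cover was 1583 bp, 3021 bp, 1074 bp and 2584 bp in the same order, so at each stage the called cover was greater in the XX population. Over all promoters with H3K4me3 in both lists, the region was wider in XX than in XY progenitor cells at 89.3% and in pregranulosa than in Sertoli cells at 69.8%. The H3K27me3 region was 10993 bp wide in XY progenitor, 11874 bp in XX progenitor and 6257 bp in Sertoli cells, where it ran from 4285 bp upstream to 1971 bp downstream of the TSS. That region was narrower than the median of its list, 8795 bp, and was absent when the widest 75% of regions were kept, in which case *Igf1* had no H3K27me3 in either population at E13.5. In pregranulosa cells the gene lay within a stretch of 799 kb without the mark.

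The H3K4me3 regions called at the *Igf1* start also differed in position between the lists. The part of sequencing depth in this, lower in the XY than in the XX progenitor list, was not tested. The gene has 9 annotated transcript starts. The H3K4me3 region began 418 bp downstream of the first of them in XY progenitor cells and 927 bp downstream in Sertoli cells, and 8 and 6 of the 9 starts lay inside a region. In XX progenitor and pregranulosa cells the region began 1020 bp and 583 bp upstream, and 9 of 9 starts lay inside it. This region was 10642 bp wide in XX progenitor cells, wider than 99.8% of that list, against 2790 bp in XY progenitor, 2626 bp in Sertoli and 4617 bp in pregranulosa cells. Over the whole gene body H3K4me3 covered 10.4%, 14.6%, 5.87% and 13.2%, and H3K27me3 7.25%, 7.85%, 2.50% and 0%. Further H3K4me3 regions lay in the body, 4 in XY progenitor, 1 in XX progenitor, 2 in Sertoli and 3 in pregranulosa cells, and 1 of them in XY progenitor cells touched an annotated exon.

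**Figure D3:**
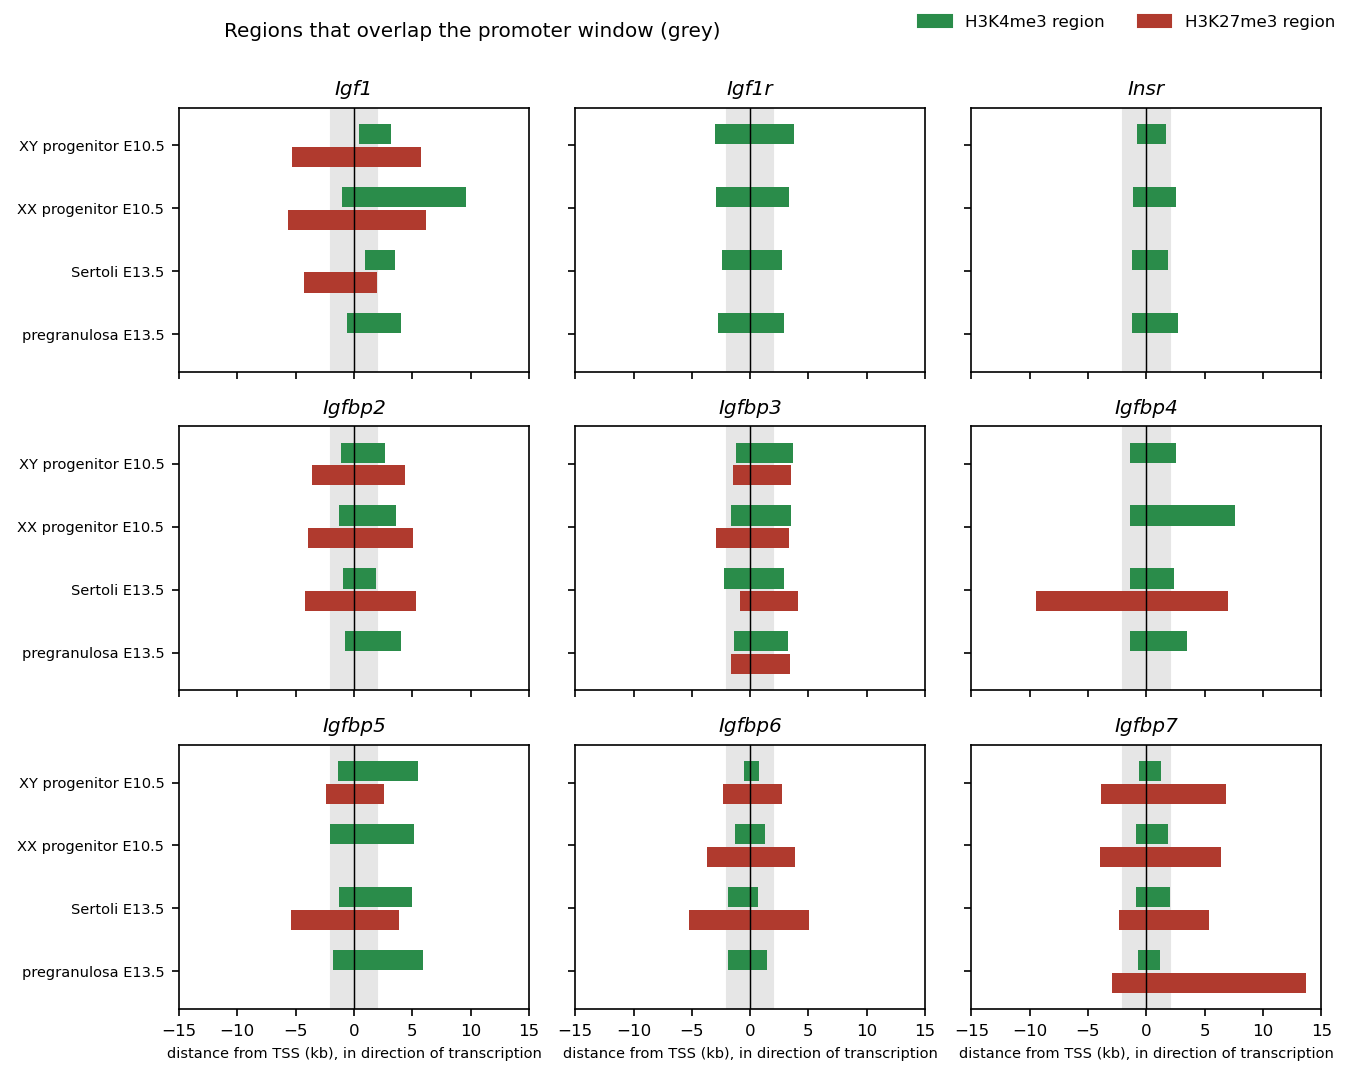
Called regions that overlap the promoter window, drawn to scale for each gene and population against distance from the TSS in kb, in the direction of transcription (green H3K4me3, red H3K27me3, grey the window). At *Igf1* the green bar starts downstream of the TSS in XY progenitor and Sertoli cells, and at *Igfbp4* a red bar is present only in the Sertoli track.

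The receptor genes kept an H3K4me3-only promoter. *Igf1r* encodes the main signalling receptor for IGF1 (chr7:75097713-75371484, plus strand), and its window was covered by H3K4me3 over 4001 bp in all 4 populations and by H3K27me3 over 0 bp in all 4. Its H3K4me3 region was 6790 bp wide in XY progenitor, 6287 bp in XX progenitor, 5173 bp in Sertoli and 5641 bp in pregranulosa cells. *Insr* encodes the insulin receptor (chr8:3150922-3279617, minus strand), with H3K4me3 over 2468 bp, 3166 bp, 3040 bp and 3191 bp of the window and H3K27me3 over 0 bp in all 4. Both shared the commonest pattern of the 8 lists, which 38.2% of autosomal genes had.

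The surroundings of *Igf1r* were not the same in all populations. An H3K27me3 region ended 2465 bp upstream of its TSS in XY progenitor cells (6373 bp wide) and 2998 bp upstream in Sertoli cells (6258 bp wide), just outside the window, and overlapped no protein-coding gene. In XX progenitor and pregranulosa cells the nearest region lay 102 kb and 101 kb upstream. Pregranulosa cells instead had a 7830-bp region within an intron of *Igf1r* (chr7:75213151-75220980), from 115438 bp to 123267 bp downstream of the TSS, that touched no annotated exon. It covered 2.86% of the gene body, and the other 3 lists had 0% there. At *Insr* the nearest H3K27me3 lay at least 192 kb away in each population, and 407 kb away in pregranulosa cells. H3K4me3 covered 5.62% to 7.32% of the *Igf1r* body and 3.85% to 6.05% of the *Insr* body.

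*Igfbp2* and *Igfbp5* are neighbours on chromosome 1 and are transcribed towards each other. *Igfbp2*, whose product is a broadly expressed carrier of IGFs, occupies chr1:72871077-72899048 on the plus strand. *Igfbp5*, whose product also binds extracellular matrix, occupies chr1:72904506-72921458 on the minus strand. Their 3′ ends are 5457 bp apart, and the whole stretch from one TSS to the other measures 50382 bp.

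At the *Igfbp2* window H3K27me3 covered 4001 bp in each list except that of pregranulosa cells, where it covered 0 bp. H3K4me3 covered 3084 bp, 3266 bp, 2833 bp and 2782 bp. The H3K27me3 region was 7931 bp wide in XY progenitor, 9030 bp in XX progenitor and 9555 bp in Sertoli cells, while the H3K4me3 region was 3707 bp, 4870 bp, 2833 bp and 4806 bp wide. At the *Igfbp5* window H3K27me3 covered 4001 bp in the XY populations (progenitor and Sertoli) and 0 bp in the XX populations (progenitor and pregranulosa). H3K4me3 covered 3348 bp, 4001 bp, 3308 bp and 3783 bp there. *Igfbp5* was the 1 member with H3K27me3 in XY and not in XX progenitor cells, out of 6 marked in the first, and 9.84% of all promoters marked in XY progenitor cells were without it in XX progenitor cells. Its region in XY progenitor cells was 5001 bp wide, close to the narrowest of a list with a median of 6398 bp (0.0103% narrower). In Sertoli cells it was 9199 bp wide.

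Along the pair, H3K27me3 lay only in regions that overlap a start site. It covered 6974 bp of the 50382 bp in XY progenitor, 5081 bp in XX progenitor, 9178 bp in Sertoli and 0 bp in pregranulosa cells. H3K4me3 covered 10494 bp, 8795 bp, 6821 bp and 9904 bp. The Sertoli list thus had the most H3K27me3 and the least H3K4me3 across the pair. Neither mark covered any base of the 5457 bp between the genes in any list. In XY progenitor cells, 2 further H3K4me3 regions lay within the *Igfbp5* body, 1 of them over exon sequence. The H3K4me3 regions at *Igfbp5*, 6278 bp to 7661 bp wide, were wider than 98.9% or more of the regions in their lists.

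**Figure D4:**
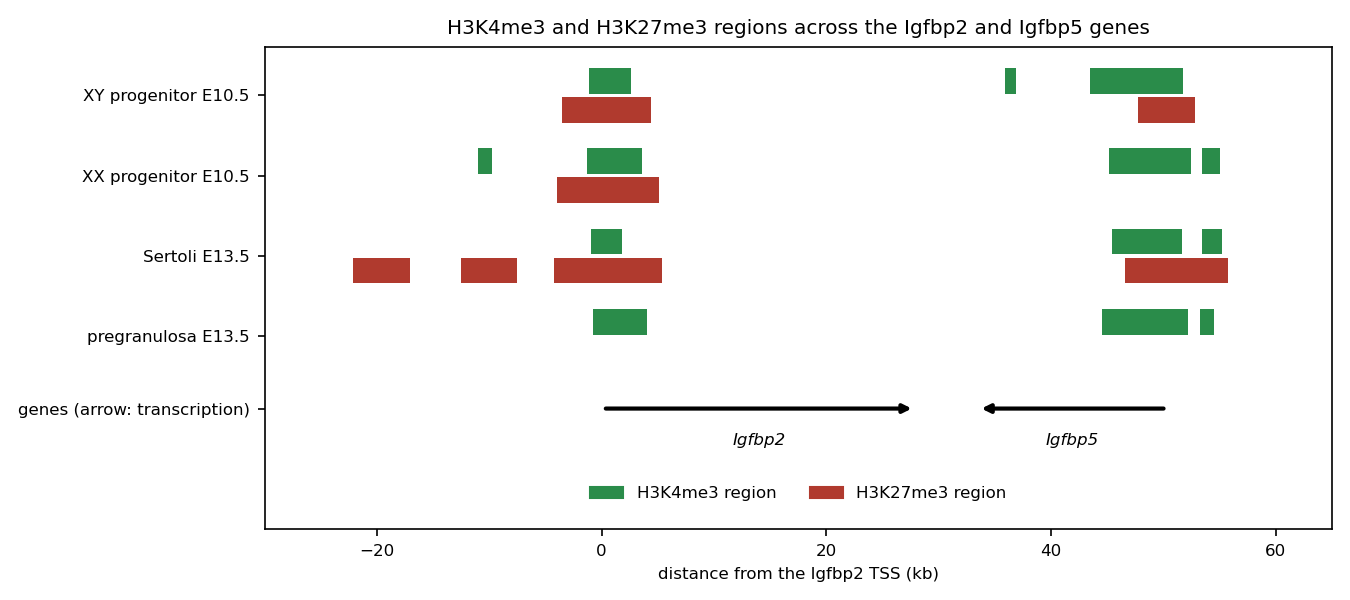
Regions of H3K4me3 (green) and H3K27me3 (red) in the 4 populations against distance from the *Igfbp2* TSS in kb, with arrows for the direction of transcription of the genes. Red bars lie over both start sites in XY progenitor and Sertoli cells, over that of *Igfbp2* alone in XX progenitor cells and nowhere in pregranulosa cells. The Sertoli track also has red bars upstream of *Igfbp2*, away from both start sites.

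Outside the genes, the domain between the flanking protein-coding genes *Rpl37a*, a ribosomal protein gene, and *Tnp1*, a gene for a sperm nuclear protein, spans 301273 bp. H3K27me3 covered 12932 bp of it in 2 regions in XY progenitor, 9030 bp in 1 region in XX progenitor, 38758 bp in 6 regions in Sertoli and 0 bp in pregranulosa cells. The 4 additional regions in Sertoli cells were each 5001 bp wide, 3 upstream of *Igfbp2* and 1 upstream of *Igfbp5*, and without them, as when the widest 75% of regions were kept, the Sertoli value was 18754 bp. The flanking promoters did not share the pattern, since *Rpl37a* had H3K4me3 over 2260 bp to 2583 bp and no H3K27me3 in any list, and *Tnp1* had neither mark. In pregranulosa cells the stretch without H3K27me3 around the pair measured 600 kb. A separate H3K4me3 region upstream of *Igfbp5* was called in XX progenitor (1533 bp wide), Sertoli (1762 bp) and pregranulosa cells (1252 bp) but not in XY progenitor cells.

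*Igfbp4* encodes a carrier that the protease PAPPA cleaves, which frees the bound IGF (chr11:98902558-98913969, plus strand). Its window had H3K27me3 over 0 bp in XY progenitor, 0 bp in XX progenitor, 4001 bp in Sertoli and 0 bp in pregranulosa cells. Of the 9 genes it was the 1 with H3K27me3 in Sertoli cells and in neither progenitor population. The Sertoli region was 16439 bp wide, from 9428 bp upstream to 7010 bp downstream, which is wider than 84.1% of that list and covers 61.4% of the gene body and all 4 annotated transcript starts. In the other 3 lists the nearest H3K27me3 lay 55.0 kb to 56.1 kb upstream, over *Gjd3*. H3K4me3 was nearly constant at the window, 3432 bp, 3399 bp, 3425 bp and 3382 bp. Its region was 9016 bp wide in XX progenitor cells and 3945 bp, 3830 bp and 4902 bp in XY progenitor, Sertoli and pregranulosa cells.

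*Igfbp6* encodes a carrier with a preference for IGF2 over IGF1 (chr15:101974793-101979942, plus strand). H3K27me3 covered 4001 bp of its window in both progenitor populations and in Sertoli cells, and 0 bp in pregranulosa cells. The region measured 5001 bp in XY progenitor and 7550 bp in XX progenitor and 10345 bp in Sertoli cells, where it covered 98.8% of the short gene body, after 52.2% and 74.5%. H3K4me3 covered 1359 bp, 2628 bp, 2569 bp and 3305 bp of the window. The stretch without H3K27me3 around the gene in pregranulosa cells was 151 kb.

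*Igfbp3* and *Igfbp7* were the members that kept H3K27me3 in all 4 populations, together with H3K4me3, a pattern that 2997 of the 21418 autosomal genes had. *Igfbp3* encodes the main IGF carrier of the blood (chr11:7106089-7113926, minus strand). H3K27me3 covered 3459 bp, 4001 bp, 2870 bp and 3617 bp of its window in XY progenitor, XX progenitor, Sertoli and pregranulosa cells, and H3K4me3 covered 3211 bp, 3647 bp, 4001 bp and 3398 bp. Its H3K27me3 regions were 5001 bp wide in 3 lists, the commonest width and close to the narrowest, with 6254 bp in that of XX progenitor cells. In those 3 lists the values of window cover thus differ by where a region of 1 width lay. Over the gene body H3K27me3 covered 45.2%, 42.6%, 52.7% and 43.2%. None of them except that of XY progenitor cells, where equal widths were ordered by position, was among the widest 75% of its list. The neighbouring *Igfbp1* ends 3539 bp from the end of *Igfbp3* and had neither mark at its promoter in any list, so the neighbours on chromosome 11 differed where those on chromosome 1 had H3K4me3 at both.

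*Igfbp7* encodes a related protein that binds IGFs weakly (chr5:77778265-77837070, minus strand). H3K27me3 covered 4001 bp of its window in each population. The region was 10691 bp wide in XY progenitor, 10364 bp in XX progenitor, 7685 bp in Sertoli and 16669 bp in pregranulosa cells. With 2 further regions in pregranulosa cells and 1 in Sertoli cells, H3K27me3 covered 11.6%, 10.9%, 17.6% and 47.1% of the gene body. H3K4me3 ran the other way at E13.5, with 2925 bp of the window covered in Sertoli and 1872 bp in pregranulosa cells, after 1862 bp and 2740 bp in XY and XX progenitor cells. *Igfbp7* was the 1 gene of the 9 whose body had more H3K27me3 in pregranulosa than in Sertoli cells apart from *Igf1r*, whose intronic region is described with that gene.

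The width of the H3K4me3 region at the promoter separated the genes further. In pregranulosa against Sertoli cells it was wider at 7 of 9 genes, while 69.8% of the 13804 promoters marked in both lists were wider there. The ratio of widths was 1.76 at *Igf1* and 1.70 at *Igfbp2*, higher than at 94.2% and 93.3% of those promoters, with a median of 1.12. The exceptions were *Igfbp3* at 0.90 and *Igfbp7* at 0.63, the latter lower than at all but 2.11% of promoters. The other 5 genes ranged from 1.09 at *Igf1r* to 1.30 at *Insr*. *Igfbp3* and *Igfbp7* were also the 2 members with H3K27me3 in pregranulosa cells. The *Igfbp3* call there was lost with the widest 75% of regions. Whether the marks go together in this way over all genes was not tested. In XX against XY progenitor cells the H3K4me3 region was wider at 8 of 9 genes, against 89.3% of 13672 promoters, and the XX list had the greater depth. *Igf1* had a ratio of 3.81 (99.4% of promoters lower), *Igfbp4* 2.29 (95.3%) and *Igfbp6* 1.93 (90.0%), where the median was 1.32, and *Igf1r* had 0.93.

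**Figure D5:**
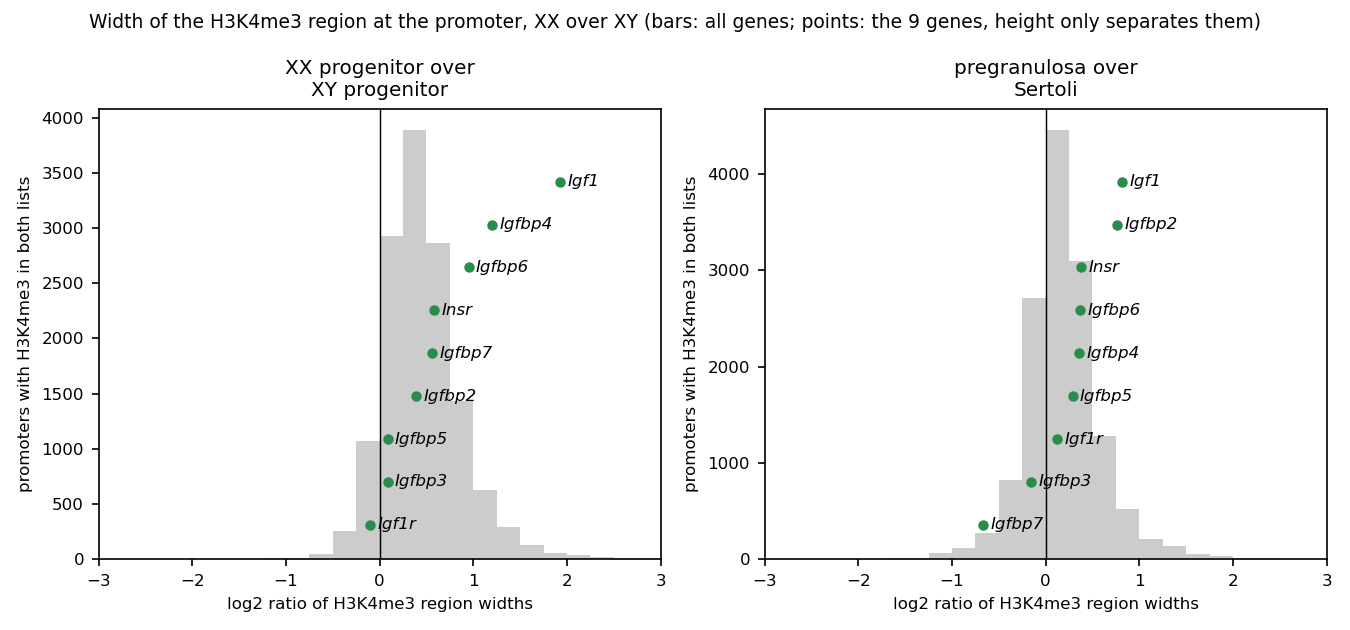
Log2 ratio of the width of the H3K4me3 region at the promoter, XX progenitor over XY progenitor (left) and pregranulosa over Sertoli (right), with grey bars for all promoters marked in both lists and points for the 9 genes, whose height only separates the names. *Igfbp3* and *Igfbp7* lie left of 0 in the right-hand panel, and *Igf1* is the rightmost point in both.

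The patterns over the 8 lists were rare for several members. H3K4me3 throughout with H3K27me3 everywhere but in pregranulosa cells, as at *Igf1*, *Igfbp2* and *Igfbp6*, was held by 200 genes (0.934%). The pattern of *Igfbp4* was held by 295 genes (1.38%) and that of *Igfbp5* by 44 (0.205%). The genes with covered bases most like those of a member, by the summed absolute difference over the 8 windows of at most 32008 bp, were *Depdc7* (1164 bp), *Gprc5a* (1451 bp) and *Kcp* (1553 bp) for *Igf1*. They were *Krt18* (738 bp), *March9* (952 bp) and *Tgfa* (973 bp) for *Igfbp2*, and *D630045J12Rik* (652 bp), *Anp32a* (1079 bp) and *Kalrn* (1179 bp) for *Igfbp4*. For *Igfbp5* they were *Wdr86* (1171 bp), *Gdpd5* (1596 bp) and *Cnnm4* (2763 bp). For *Igfbp6* they were *Tnip2* (901 bp), *1700106J16Rik* (1225 bp) and *Stc1* (1406 bp), the last of which encodes an inhibitor of the protease PAPPA.

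The study used lists of genes whose expression is specific to 1 supporting cell type at E13.5, taken from earlier expression data. *Igf1*, *Igfbp2*, *Igfbp4* and *Igfbp5* were in the pregranulosa-specific list, *Igfbp3* and *Igfbp7* in the Sertoli-specific list, and *Igfbp6*, *Igf1r* and *Insr* in neither. All 4 members of the pregranulosa-specific list had H3K27me3 in Sertoli and none in pregranulosa cells, as did 113 of the 1072 autosomal genes of that list. The 2 members of the Sertoli-specific list had H3K27me3 in both populations at E13.5, as did 152 of 1327 genes of that list, while 183 of them had it in pregranulosa cells alone. *Igfbp6* had the chromatin arrangement of the first group without being in its list. No expression was measured in these samples.

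Another 25 genes of the insulin and IGF pathway were read in the same way. H3K4me3 was at 20 of their promoters in XY progenitor, 20 in XX progenitor, 18 in Sertoli and 20 in pregranulosa cells, and H3K27me3 at 12, 12, 13 and 13. Their number with H3K27me3 was therefore alike in Sertoli and pregranulosa cells, where the 9 members had 7 and 2. Of the 25, H3K27me3 was in Sertoli cells alone at E13.5 at 2, *Stc1* (4001 bp) and *Igfals*, the gene of a serum carrier subunit (1859 bp). It was in pregranulosa cells alone at 2, *Pappa*, the protease that cleaves IGFBP4 (4001 bp), and *Irs2*, an adaptor of both receptors (3649 bp). *Pappa* had also had H3K27me3 in both progenitor populations, over 4001 bp and 3678 bp, and H3K4me3 over 2774 bp to 3309 bp in every list. *Igfbp4* and *Pappa*, a carrier and its protease, were thus opposite in H3K27me3 at E13.5, while both had H3K4me3 in both populations. The pathway gene *Pappa2* had H3K27me3 in both, over 3669 bp in Sertoli and 3151 bp in pregranulosa cells.

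Of the remaining pathway genes, 11 had H3K27me3 in both populations at E13.5 and 10 in neither. *Igf2*, the gene of the second ligand, had H3K27me3 over 4001 bp of its window in both progenitor populations and in Sertoli cells, and 3925 bp in pregranulosa cells. H3K4me3 covered 474 bp, 1853 bp, 0 bp and 187 bp of this window, but 73.0%, 78.1%, 20.7% and 65.9% of the gene body. In Sertoli cells the nearest H3K4me3 region lay 5420 bp from the TSS, so all of the H3K4me3 in the gene body was outside the window. *Igf2r*, which clears IGF2, had H3K4me3 over 2706 bp to 3187 bp and no H3K27me3, as at *Igf1r* and *Insr*. *Insrr*, the third receptor of the family, had H3K27me3 over 4001 bp in every list beside H3K4me3 over 2144 bp to 3208 bp. *Igfbpl1* had H3K27me3 over 4001 bp in every list and H3K4me3 over 1539 bp, 1961 bp, 0 bp and 1578 bp. In Sertoli cells H3K4me3 still covered 10.6% of the *Igfbpl1* body. *Foxo3*, a transcription factor restrained by insulin signalling, had H3K27me3 in XY progenitor cells (4001 bp) and in no other list. The adaptor and kinase genes *Irs1*, *Shc1*, *Pik3ca*, *Pik3r1* and *Akt2* had none at the promoter in any list.

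The limits of these values are those of the lists. A promoter is marked or not by a threshold, so that a promoter without a call can still carry the mark at a lower level, and none of the differences between populations was tested.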

How the data were processed

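Per the methods, the authors used Bowtie to align reads to mm9, and peaks were called in each replicate by HOMER findPeaks in histone style, with H3 as the control. The submitters' processing notes name Trim Galore, Bowtie, SAMtools and HOMER, and their versions are not given in the sources used here. The headers of 6 lists state a peak size of 1000 bp for H3K4me3 and of 5000 bp for H3K27me3, at least 4 times the control and 4 times the local signal, and a Poisson p-value threshold of 0.0001 against the control. The 2 pregranulosa lists carry no header. The series description says that the deposited lists came from both replicates, and only the 4 progenitor headers name joined reads. The score column in the lists deposited by the authors is the same for every peak, so no level of a mark could be used and only presence and covered bases were.

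Overlapping peaks of a list were joined, since 3 of the H3K27me3 lists hold overlapping windows, while the pregranulosa list came already joined by a rule not given in the sources used here, which can affect its widths. Promoters (TSS ± 2 kb, overlap of at least 1 bp) and gene bodies came from GENCODE release M1 on NCBIM37, with the gene's 5′ end as TSS, and 8 lists from the 24 samples were read. Shares refer to 21418 autosomal protein-coding genes. The genes and lists were chosen with earlier results of these data known. Named genes were the 9 members, the pathway and marker lists, the genes next to the *Igfbp2* and *Igfbp5* pair, and, for members whose pattern under 5% of genes held, the 3 genes with the smallest summed difference in covered bases. The authors' sex-specific lists were used for gene names alone. Sequences are from NCBIM37. The joining of regions, the window cover, the counting of regions and the nearest distance were tested on simulated data. Alternatives changed the overlap, the window, the start site, the set of regions and the joining of regions. No column of authors' comparisons was used, and H3-normalized levels were not analysed here. Python 3.11.15, NumPy 2.4.6 and matplotlib 3.10.9 were used.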

Additional observations from a re-analysis of the deposited data

How the results depend on the processing

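No paired analysis was possible because each condition has 1 list, from both replicates per the series description, and no result comes from a test. For the same reason no replicate could be left out. Of 184 values recomputed under the alternatives, 175 stayed within 1.5 times the reported one. They include the H3K4me3 counts, which were 9 in every setting. A change of members can stay within this bound, as when the Sertoli H3K27me3 count fell from 7 to 5. Counts of promoters that differ between populations were not among these values. With the widest 75% of regions, and with every list cut to as many regions as the shortest list of its mark, 1 member had H3K27me3 in pregranulosa cells, 1 was bivalent there, and 4001 bp of the 9 promoter windows had H3K27me3. Under both settings, added for this value after seeing the data, the H3K27me3 cover between *Rpl37a* and *Tnp1* in Sertoli cells was 18754 bp instead of 38758 bp. The member lost was *Igfbp3*, whose region is 5001 bp wide and so among the first to be dropped. Under the same settings *Igf1* and *Igfbp3* lost H3K27me3 in Sertoli cells but kept it in XY progenitor cells. The absence of members that had H3K27me3 in XY progenitor and none in Sertoli cells therefore did not hold there. *Igf1* then had none in either population at E13.5. By contrast, *Igfbp2*, *Igfbp4*, *Igfbp5* and *Igfbp6* kept it in Sertoli and lacked it in pregranulosa cells under all 6 alternatives that were applied to the promoter calls. Regions of equal width were taken in order of position, so which of *Igfbp3*, *Igfbp5* and *Igfbp6* (each 5001 bp in XY progenitor cells) was kept is arbitrary. Joining H3K4me3 regions within 5 kb raised the cover of the 9 gene bodies in XY progenitor cells from 53888 bp to 83951 bp, because the bases between regions are then counted. With TSS ± 5 kb, *Igf1r* had H3K27me3 in XY progenitor and Sertoli cells.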
